A study of Homo sapiens with 11 samples.

Results

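The effect of FHD-286 on gene expression was measured in OCI-AML3-FLT3-ITD, an acute myeloid leukaemia (AML) line, from 5 of the 11 libraries of the series. The libraries were chosen by their labels. In 2 of them the cells had received FHD-286 at 100 nM for 16 h, and 3 were labelled as controls of the same line. The labels do not say whether these received a vehicle, and the markers of 1 of them, control 2, went against its label (below). The other 6 libraries (3 controls and 3 with the same dose and time) came from OCI-AML3, called the parental line below, and served to estimate the shared spread and to test where the effect differed between the lines. All cells grew in RPMI medium with 20% serum. The labels name the FLT3-ITD allele of the line but not how it was introduced, nor whether the line is a single clone. Nor do they say whether replicates came from separate cultures. The spread that every p-value rests on is that between these libraries, and it may be technical.

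FHD-286 inhibits BRG1 and BRM, the ATPases encoded by SMARCA4 and SMARCA2. Each can be the motor of the BAF (SWI/SNF) complex, which moves nucleosomes and so keeps enhancers and promoters open to transcription factors. In AML cells this complex is known for holding open the enhancers used by PU.1, the ETS factor encoded by SPI1, and those that drive MYC. FLT3 is a receptor tyrosine kinase of blood progenitors, and its internal tandem duplication (ITD) makes it signal without its ligand through STAT5, ERK and AKT. OCI-AML3 is an established line with mutant NPM1, of the myelomonocytic kind.

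Total counts in the 5 libraries ran from 68820021 to 79172389. Levels are given as CPM, the count of a gene relative to its library's total after scaling by TMM factors, in the order control 1, 2 and 3 and then treated 1 and 2. A total of 3 counts in a library, the limit that a count of 0 allows, corresponded to 0.0366 to 0.0433 CPM. This limit covers counting error only. The library labelled control 2 stood apart from its group. FLT3 was at 178, 53.4 and 203 CPM in the controls and 171 and 169 CPM in the treated libraries, against 41.1 to 43.3 CPM in the parental controls. WT1 (21.8, 0.202 and 19.9 CPM) and WLS (13.4, 0.0577 and 14.4 CPM) were near 0 in the library labelled control 2, as in the parental line. FLT3, WT1 and WLS had been named beforehand, from these same data, as genes in which that library resembles the parental line. Their values here therefore restate that choice and are no separate evidence. Of 10525 genes expressed at a mean log2 CPM of 2 or more, 171 lay at least 4-fold outside controls 1 and 3 in that library, and none separated controls 1 and 3 by as much. For 161 of the 171 the parental control mean was nearer to the library labelled control 2 than to controls 1 and 3. Its mitochondrial share of counts was 8.85%, against 4.48% to 5.13% in the other 4 libraries. Over 18908 genes, its log CPM correlated at 0.979 to 0.984 with the parental controls and at 0.957 and 0.96 with controls 1 and 3 (a description, since genes are not independent). Whether it came from the parental line, in whole or in part, was not tested. Counts of calls are therefore also given without the library labelled control 2, written below as "without control 2", as are the list medians and fold changes that moved most.

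The markers of a myeloid line were present in all 5 libraries, with 3 qualifications. CD33 (47.3 to 62 CPM in controls), LYZ (77 to 89.5 CPM) and PTPRC (313 to 419 CPM) were detected throughout. MPO was low, at 1.8 to 2.62 CPM in the controls and 0.206 and 0.305 CPM after treatment. CD68 was at or under 0.202 CPM in every one of these libraries (85.8% of its exon length is shared with other genes), and LYZ was at 11 and 9.1 CPM in the treated ones (34% shared). In bulk RNA, fewer cells of a type and less RNA per cell cannot be told apart.

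With all libraries, 2957 of 18908 genes tested rose with FHD-286 and 2810 fell (edgeR's quasi-likelihood test, Benjamini-Hochberg adjusted p under 0.05). These are 15.6% and 14.9% of the genes tested, and they are the background for the counts of list members below with all libraries. Among the 13300 protein-coding genes tested the shares were higher, at 19.6% and 17.2%. The median log2 fold change over all genes was -0.02. Without control 2, 4619 of 18662 genes rose (24.8%) and 4521 fell (24.2%), with a median of 0.02. Those percentages are the background for the list counts without control 2. Of the calls with all libraries, 2937 rises and 2751 falls were called again in the same direction, 20 rises and 59 falls were not, and none turned. Large falls outnumbered large rises: 576 genes fell at least 4-fold and 228 rose as much, and 174 fell at least 16-fold against 29 that rose as much. Without control 2, these counts were 556 and 280 and then 139 and 31. Leaving out a treated library moved the counts the other way, to 1530 rises and 1378 falls without treated 1 and to 1886 and 1578 without treated 2, where the lone treated library is assumed to vary like the other groups. Scaled by library totals instead of TMM factors, 4032 genes rose and 2254 fell, with a median of 0.09.

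The leading changes are the 12 in each direction that were largest in both analyses among called genes at a mean log2 CPM of 2 or more whose groups did not overlap. Some genes of lower expression had larger fitted values, such as LINC03082, TIFAB (52.9% of its exon length is shared) and FRG2FP, at log2 fold changes of -9.73, -7.72 and 7.07. LINC03082 had 0 reads in the treated libraries and TIFAB 3, and FRG2FP had 10 in the controls. The size of these changes is therefore uncertain. Among the 12 leading falls, CSF1R (ENSG00000182578.13, GRCh38 chromosome 5, 150053291 to 150113372), the receptor through which M-CSF drives monocytes and macrophages, was at 12.5, 7.92 and 13.3 CPM in the controls and 0.0137 and 0.134 CPM in the treated libraries. Its treated libraries held 12 reads in all, against 2498 in the controls. The log2 fold change was -7.17 ± 0.53 (SE, adjusted p = 6.39e-06) and -7.35 without control 2. LGALS12, encoding galectin-12, was at 51.4, 54.3 and 44 CPM and then 0.687 and 0.83 CPM, a log2 fold change of -6.03 ± 0.18 (adjusted p = 7.29e-08) that was -5.96 without control 2. MYBPH, encoding myosin-binding protein H, went from 183, 124 and 170 CPM to 5.77 and 4.44 CPM (-4.96 ± 0.25, adjusted p = 8.84e-07, and -5.12 without control 2). GAL, the neuropeptide galanin, went from 25.2, 28.6 and 20.5 CPM to 0.961 and 1.94 CPM. In these 4 genes every control lay far above both treated libraries, the library labelled control 2 included. That all controls lay above the treated libraries was required by the choice of genes.

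In other leading falls the size depended on that library, while the same direction with and without it was required by the choice of genes. RNASE1, a secreted ribonuclease, was at 4.52, 45.3 and 4.11 CPM in the controls and 0.124 and 0.0732 CPM after treatment, so that its log2 fold change was -7.5 with all libraries and -5.45 without control 2. IGFBP5, a binding protein of insulin-like growth factors, was at 2.39, 13.9 and 2.5 CPM and then 0.0687 and 0.061 CPM (-6.56 and -5.21). The library labelled control 2 was likewise the highest control for RHEX, an erythropoietin-pathway adaptor (5.55, 13.6 and 5.28 CPM, then 0.179 and 0.146 CPM), for ARHGAP9, a GTPase-activating protein, and for CD300LF, an inhibitory receptor of myeloid cells. RHEX shares 19.3% of its exon length with another gene and ARHGAP9 10.3%, and reads of overlapping genes cannot be told apart here. MS4A6A, a membrane protein of monocytes and macrophages, was the opposite case, at 66.9, 2.96 and 59.2 CPM in the controls and 2.69 and 2.33 CPM in the treated libraries. There the library labelled control 2 lay just above the treated ones, and the log2 fold change was -4.1 ± 0.99 (adjusted p = 0.0102) with all libraries and -4.65 without control 2. It was the one gene of the 24 leading changes whose call ended when a treated library was left out. The unnamed noncoding RNAs ENSG00000254006 (12, 21.6 and 12.4 CPM, then 0.33 and 0.403 CPM) and ENSG00000269243 (17.2, 30.2 and 16.9 CPM, then 1.14 and 0.891 CPM) completed the 12. The latter is an antisense gene that shares 49.9% of its exon length with others.

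Among the 12 leading rises, CTTN (ENSG00000085733.15, chromosome 11, 70398404 to 70436584), encoding cortactin, which binds branched actin, was at 2.76, 8.18 and 3.13 CPM in the controls and 116 CPM in both treated libraries. Its log2 fold change was 4.63 ± 0.37 (adjusted p = 1.12e-05) and 5.29 without control 2. EPAS1, encoding HIF-2 alpha, went from 7.65, 30.6 and 8.44 CPM to 129 and 135 CPM (3.09 ± 0.46, adjusted p = 0.000687, and 4.03 without control 2). PTK2, the focal adhesion kinase, went from 4.92, 2.14 and 4.97 CPM to 35.7 and 35.8 CPM (3.15 ± 0.28, adjusted p = 2.43e-05, and 2.85 without control 2). For CTTN and EPAS1 the library labelled control 2 was the highest control and for PTK2 the lowest. None of the 3 controls reached the treated range, which the choice of genes required.

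AQP3, a channel for water and glycerol, was at 2.64, 1.3 and 1.82 CPM in the controls and 22.6 and 24.4 CPM in the treated libraries. DNASE2, a lysosomal DNase, was at 0.723, 0.0577 and 0.724 CPM and then 14.7 and 15.5 CPM. The lone noncoding gene among the 12, LINC00968, went from 1.76, 1.47 and 1.47 CPM to 22.4 and 19.8 CPM. HOXB5 (2.04, 2.47 and 2.11 CPM, then 12.6 and 13.7 CPM), CAPN5, a calpain (1.09, 1.62 and 1.19 CPM, then 6.78 and 7.9 CPM), and TMEM169 (1.13, 1.04 and 1.1 CPM, then 5.49 and 5.46 CPM) had tight controls. SYNE1, which links the nucleus to the cytoskeleton, RHBDF1, an inactive rhomboid protein (11.7, 4.14 and 10.9 CPM, then 50.2 and 56.4 CPM), and HFE, a regulator of iron uptake, were lowest in the library labelled control 2. The log2 fold changes of these 9 genes ran from 2.33 to 4.89 with all libraries and from 2.17 to 4.38 without control 2.

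**Figure D1:**
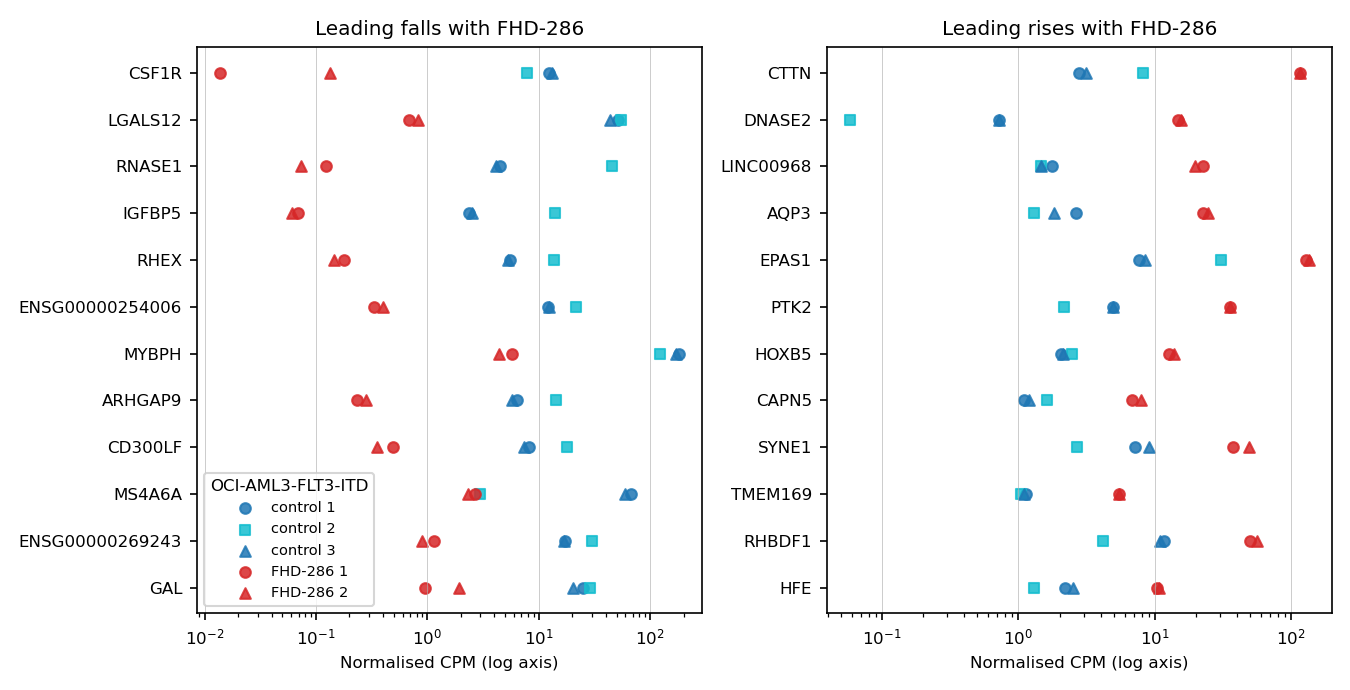
Level in CPM (log axis) of the 12 leading falls (left) and 12 leading rises (right) in each of the 5 OCI-AML3-FLT3-ITD libraries; blue and cyan points are controls (square: the library labelled control 2) and red points are FHD-286. In every gene, as the choice of genes required, the red points lie apart from all 3 controls, with MS4A6A the narrowest gap (2.69 against 2.96 CPM).

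Promoter sequence was examined for the genes that moved. A window from 250 bases before to 50 bases after the start was at hand for 11736 of the 18908 genes tested (RefSeq, GRCh38.p14), and 4 strings were searched on both strands. GAGGAAGT, the core bound by PU.1 and other ETS factors, lay in 2.66% of all these windows. It lay in 27 of the 324 windows of the strong falls (8.33%), and in 5 of the 136 of the strong rises (3.68%). Strong changes are those called in both analyses and at least 4-fold with all libraries. The fold was not required without control 2. TGACTCA, the AP-1 string, lay in 3.26% of all windows, in 12 of the 136 (8.82%) and in 19 of the 324 (5.86%). CACGTG, the E-box of MYC, lay in 9.84% of all windows, 6.62% of the strong rises and 5.86% of the strong falls, and CCAAT, the NF-Y string, in 36.2%, 30.9% and 30.6%. Over all genes called in both analyses, whatever their fold, the shares in rises and falls were 2.57% and 4.37% for GAGGAAGT, 3.24% and 3.54% for TGACTCA, 8.28% and 11% for CACGTG, and 36.7% and 34.2% for CCAAT. For CACGTG the falls as a whole thus lay above the share of all windows and the strong falls below it. The median GC content of these windows was 65% over all genes, 57.5% for the strong falls and 63.3% for the strong rises. These shares are descriptions of letters in a window, and binding was not measured.

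The windows of 5 genes show what the 2 strings look like in genes that moved. They are printed 5′ to 3′ on the strand of the gene, with every match to the 4 strings in capitals. MYBPH (GRCh38.p14 chr1:203175777-203176076, minus strand), PRTN3 (chr19:840749-841048, plus strand) and TLR4 (chr9:117704153-117704452, plus strand) fell and hold GAGGAAGT, at base -172, at base -88, and at bases -173 and -101 before the start. In TLR4 it is read as ACTTCCTC, from the other strand, and PRTN3 and TLR4 also hold CCAAT or its reverse ATTGG. RHBDF1 (chr16:72582-72881, minus strand) rose and CSF1R (chr5:150113316-150113615, minus strand) fell, and both hold TGACTCA, read as TGAGTCA, at bases -64 and -34.
MYBPH: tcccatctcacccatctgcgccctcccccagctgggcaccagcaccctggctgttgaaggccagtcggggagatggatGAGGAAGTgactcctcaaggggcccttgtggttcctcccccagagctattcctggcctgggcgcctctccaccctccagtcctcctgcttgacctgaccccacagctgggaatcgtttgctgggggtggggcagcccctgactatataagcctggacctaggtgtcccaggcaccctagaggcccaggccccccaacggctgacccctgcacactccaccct
PRTN3: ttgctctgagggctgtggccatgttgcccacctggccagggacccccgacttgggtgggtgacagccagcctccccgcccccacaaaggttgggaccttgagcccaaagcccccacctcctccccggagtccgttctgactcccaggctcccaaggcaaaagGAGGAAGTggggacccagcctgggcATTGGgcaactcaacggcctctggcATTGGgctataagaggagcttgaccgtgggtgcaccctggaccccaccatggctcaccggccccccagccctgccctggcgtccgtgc
TLR4: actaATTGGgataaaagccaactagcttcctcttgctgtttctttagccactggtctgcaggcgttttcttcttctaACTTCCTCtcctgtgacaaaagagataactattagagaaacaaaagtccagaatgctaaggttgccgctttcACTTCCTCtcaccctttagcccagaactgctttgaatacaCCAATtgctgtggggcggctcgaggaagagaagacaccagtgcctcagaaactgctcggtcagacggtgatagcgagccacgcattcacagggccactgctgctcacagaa
RHBDF1: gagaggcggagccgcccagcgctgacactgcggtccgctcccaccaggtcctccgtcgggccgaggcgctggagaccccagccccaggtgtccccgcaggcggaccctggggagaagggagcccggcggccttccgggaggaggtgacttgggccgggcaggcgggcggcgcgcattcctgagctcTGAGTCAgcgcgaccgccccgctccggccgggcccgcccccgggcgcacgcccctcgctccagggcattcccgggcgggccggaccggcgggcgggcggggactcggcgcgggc
CSF1R: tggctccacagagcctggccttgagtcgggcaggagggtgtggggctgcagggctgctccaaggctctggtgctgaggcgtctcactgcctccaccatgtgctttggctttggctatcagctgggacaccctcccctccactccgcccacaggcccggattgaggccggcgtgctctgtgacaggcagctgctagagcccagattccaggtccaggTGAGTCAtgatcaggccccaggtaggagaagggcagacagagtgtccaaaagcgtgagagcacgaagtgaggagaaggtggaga

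Of the targets of the inhibitor, SMARCA2 rose and SMARCA4 was called, as lower, only without control 2. SMARCA4 was at 414, 362 and 439 CPM in the controls and 366 and 374 CPM after treatment, which overlap (adjusted p = 0.344 with all libraries, 0.0332 without control 2). SMARCA2 rose from 98.6, 92.4 and 113 CPM to 124 and 126 CPM (log2 fold change 0.3 ± 0.08, adjusted p = 0.0204). Of 26 BAF subunits tested, 9 rose and 5 fell, with a median of 0.12 and log2 fold changes from -1.92 to 1.21 (12 and 6 called without control 2). BICRAL, a subunit of the noncanonical complex, rose from 45.8, 47.5 and 53.3 CPM to 116 and 111 CPM. SS18, another BAF subunit, rose from 80.6, 48.2 and 82.7 CPM to 163 and 144 CPM. SMARCD3 fell from 11.1, 14.3 and 10.2 CPM to 5.07 and 6.55 CPM (13.8% of its exon length is shared), and BRD9, the bromodomain subunit that pairs with BICRAL, fell by 0.41 on the log2 scale.

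Haematopoietic transcription factors were called lower more often than higher. Of 27 haematopoietic factors tested, 14 fell and 2 rose, with a median of -0.52 (17 and 4 of 26 without control 2). SPI1 (ENSG00000066336.11, chromosome 11, 47354860 to 47378576), which encodes PU.1, was at 316, 284 and 271 CPM in the controls and 23.1 and 24.1 CPM in the treated libraries. Its log2 fold change of -3.62 ± 0.12 (adjusted p = 8.04e-08) was -3.64 without control 2. CEBPA, the granulocyte-monocyte factor, was chosen here as a lineage marker and fell from 244, 288 and 214 CPM to 56.8 and 91.3 CPM, with 43.4% of its exon length shared with another gene. ERG, an ETS factor of stem and progenitor cells, was at 4.42, 13.7 and 4.9 CPM and then 1.9 and 1.71 CPM (-2.09, and -1.37 without control 2). ELF1, another ETS factor, rose from 156, 136 and 169 CPM to 251 and 215 CPM.

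The HOX group went the other way. Of 23 HOXA, HOXB, MEIS and PBX genes tested, 13 rose and none fell (edgeR, adjusted p), with a median of 0.46; without control 2, 15 rose and 3 fell. HOXB5, one of the leading rises above, was among them. Of 15 genes of NPM1, menin and the KMT2A complex, 2 rose (AFF4 and PSIP1) and 3 fell, with a median of -0.1 that was 0.01 on library totals and -0.02 without control 2 (4 and 4 called). NPM1 itself fell by 0.4 on the log2 scale, from 1830, 1755 and 1592 CPM to 1407 and 1215 CPM.

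The effector genes of phagocytes fell in most lists. All 6 subunits of the phagocyte NADPH oxidase, which makes superoxide, fell with all libraries and without control 2. CYBB, the catalytic subunit, went from 260, 237 and 283 CPM to 32.9 and 29.1 CPM (-3.07 ± 0.12, adjusted p = 1.87e-07, and -3.13 without control 2). NCF1, which has near-identical copies among which reads may be split, went from 40.6, 92 and 37.3 CPM to 19.3 and 17.2 CPM. Smaller falls were those of NCF4 by 1.25, CYBA by 0.69 and RAC2 by 0.43 on the log2 scale.

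In the list of 27 monocyte and macrophage markers, 19 members fell and 1 rose, with a median of -1.51 (22 and 3 without control 2). LILRB1, an inhibitory receptor, went from 2.1, 3.06 and 2.41 CPM to 0.0687 and 0.171 CPM. CD36, a scavenger receptor, was the 1 that rose, from 67.9, 65.1 and 64.9 CPM to 148 and 121 CPM. In the list of granule genes of neutrophil precursors, 11 of 14 fell and 2 rose, in both analyses, with a median of -1.44. PRTN3, the granule protease proteinase 3, went from 1167, 1193 and 968 CPM to 125 and 124 CPM (-3.15 ± 0.12, adjusted p = 1.77e-07, and -3.1 without control 2), and MMP9, a gelatinase, from 15.9, 3.8 and 15.5 CPM to 1.22 and 1.33 CPM (18.4% of its exon length is shared). CAMP, the antimicrobial peptide of specific granules, rose from 0.156, 0 and 0.0749 CPM to 3.19 and 2.54 CPM, on 17 reads in the controls and 440 in the treated libraries.

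Among 15 Fc and complement receptors, 9 fell and 2 rose in both analyses, with a median of -0.67. FCGR1A, the high-affinity IgG receptor, went from 51.9, 16.6 and 45 CPM to 4.42 and 3.5 CPM, in a family of near-identical copies and with 24.6% of its exon length shared. FCGR2B (1.4, 25.1 and 1.3 CPM, then 0.165 and 0.195 CPM) had a log2 fold change of -5.67 with all libraries and -2.89 without control 2. C5AR1, the receptor of complement C5a, was at 4.02, 0.447 and 4.82 CPM and then 0.453 and 0.476 CPM, so that the groups overlap through the library labelled control 2; CD59, which blocks complement, rose from 10.5, 4.94 and 8.05 CPM to 18.2 and 18.9 CPM. Of 17 pattern recognition receptors, 7 fell and 4 rose (10 and 6 without control 2), with a median of -0.51. NLRP12 went from 56.1, 20.7 and 58.2 CPM to 11.9 and 12.6 CPM, and TLR4, the endotoxin receptor, from 24.1, 28.1 and 27.9 CPM to 10.3 and 8.8 CPM, while TLR6 rose from 4.38, 5.04 and 5.72 CPM to 16.8 and 15.5 CPM. Of 12 surface markers of AML, 6 fell and 1 rose in both analyses, with a median of -0.34. CD44, the hyaluronan receptor, was at 21.9, 273 and 20.2 CPM and then 2.35 and 2.26 CPM (-5.51, and -3.19 without control 2), LILRB4 at 86.8, 132 and 79.5 CPM and then 14.9 and 15.3 CPM (13% of its exon length is shared), and MS4A3 at 202, 228 and 181 CPM and then 36.9 and 33.9 CPM. ANPEP (CD13) was the 1 that rose, from 11.1, 22 and 11.7 CPM to 31.7 and 32.9 CPM.

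Receptors and signalling genes split in both directions. Of 22 myeloid cytokine and growth factor receptors, 8 rose and 8 fell (10 and 8 without control 2), with medians of 0.22 and 0.09. CSF2RB, the shared beta chain of the IL-3, IL-5 and GM-CSF receptors, went from 34.1, 46.2 and 35.4 CPM to 3.61 and 3.42 CPM (-3.46 ± 0.15, adjusted p = 2.66e-07), and IL10RA from 5.53, 3.48 and 5.84 CPM to 0.783 and 0.793 CPM. FLT3 itself was not called, with a log2 fold change of 0.23 ± 0.39 (adjusted p = 0.698) and of -0.16 (adjusted p = 0.0731) without control 2. Of 16 FLT3 and STAT5 targets, 4 rose and 2 fell (6 and 4 without control 2), and the median was -0.15 with all libraries but 0.1 without control 2. CISH, a STAT5 target and feedback inhibitor, went from 11.4, 9.37 and 10.1 CPM to 3.36 and 2.93 CPM, and BCL6, which STAT5 represses, from 14.2, 7.78 and 13.6 CPM to 5.74 and 5.38 CPM. SOCS3, another feedback inhibitor, rose from 2.37, 1.73 and 2.5 CPM to 6.26 and 6.6 CPM.

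Of 21 ERK output and feedback genes, 6 rose and 4 fell (9 and 5 without control 2), with a median of 0.11 that was -0.13 without control 1 and -0.16 without control 3. CCND1, cyclin D1, went from 29, 67.7 and 29.3 CPM to 151 and 149 CPM (10.3% of its exon length is shared), and DUSP2, a phosphatase of ERK, from 9.51, 8.23 and 8.45 CPM to 2.55 and 2.73 CPM. Of 24 AP-1 and immediate early genes, 8 fell and 4 rose (12 and 5 without control 2), with medians of -0.24 and -0.16. FOS went from 21.5, 49.7 and 22.5 CPM to 8.79 and 9.25 CPM and BATF from 14.3, 18.9 and 10.9 CPM to 4.39 and 4.25 CPM, while JUNB rose from 102, 77.5 and 91.5 CPM to 123 and 143 CPM (14.2% of its exon length is shared).

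Adhesion genes were called lower more often than higher. Of 19 integrin subunits, 9 fell and 3 rose, with a median of -0.64 (9 and 3 of 18 without control 2). ITGAL, the alpha chain of LFA-1, went from 28.1, 37 and 31.1 CPM to 5.25 and 4.64 CPM. ITGB2, its beta chain, was at 607, 2581 and 575 CPM and then 242 and 238 CPM (-2.39, and -1.3 without control 2). ITGAV, an alpha chain that binds vitronectin, rose from 12.4, 13.3 and 15.7 CPM to 25.6 and 24.2 CPM. Of 29 focal adhesion and cortical actin genes, 9 fell and 4 rose (13 and 8 without control 2), with a median of -0.05 that was 0.06 on library totals and -0.1 without control 2. FERMT3, the kindlin that activates leukocyte integrins, went from 134, 161 and 120 CPM to 33.3 and 34.5 CPM (-2.03 ± 0.13, adjusted p = 2.65e-06), against the rises of CTTN and PTK2 above. Of 17 chemokine and chemoattractant receptors, 9 fell and 4 rose (10 and 4 of 16 without control 2), with a median of -1.24 with all libraries and -0.66 without control 2. CX3CR1 (10, 3.45 and 10.6 CPM, then 2.13 and 1.6 CPM) and CXCR2 (4.08, 6.77 and 4.77 CPM, then 1.43 and 1.32 CPM) fell, and FPR1, the formyl peptide receptor, rose from 0.425, 0.159 and 0.425 CPM to 1.8 and 1.64 CPM.

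Genes of growth and protein synthesis fell together with MYC. MYC, a transcription factor that drives growth, was at 639, 759 and 598 CPM in the controls and 200 and 178 CPM in the treated libraries. Among its targets in the nucleolus and in growth, 39 of 50 fell and none rose, with a median of -0.62 (46 fell without control 2). SORD went from 108, 96.6 and 105 CPM to 50.6 and 47.4 CPM, WDR74, a ribosome assembly factor, from 51.5, 42.9 and 46.7 CPM to 21.3 and 22.5 CPM (22.3% of its exon length is shared), and RRP1B from 129, 316 and 137 CPM to 85.8 and 81.2 CPM. Of 40 cytosolic ribosomal protein genes, 25 fell (28 without control 2) with a median of -0.4, a family whose pseudogenes may take reads. Among 34 mitochondrial ribosomal protein genes, 13 fell (26 without control 2), with a median of -0.24, and none of either family rose (edgeR, adjusted p). None of the 13 mitochondrially encoded genes was called, and their median of -0.38 became 0.01 without control 2, the library with the high mitochondrial share.

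Of 23 cytosolic aminoacyl-tRNA synthetases, 8 fell with all libraries and 20 without control 2, with medians of -0.36 and -0.55. WARS1, the tryptophan enzyme, was at 595, 240 and 555 CPM and then 134 and 120 CPM (10.6% of its exon length is shared). Of 29 genes of the ATF4 amino acid response, 15 fell, and 27 fell without control 2, with medians of -0.77 and -0.99. SHMT2, the mitochondrial serine enzyme, went from 615, 356 and 559 CPM to 222 and 215 CPM, and STC2, at 204, 68.2 and 212 CPM and then 78.2 and 71.1 CPM, overlapped through the library labelled control 2. That library lay below controls 1 and 3 for the genes named from both lists. Without it the common biological coefficient of variation over all genes was also lower, at 0.0652 against 0.193. Of 29 purine, pyrimidine and one-carbon enzymes, 11 fell and 2 rose (19 and 2 without control 2), with a median of -0.27; PFAS went from 190, 147 and 201 CPM to 80.8 and 89.2 CPM and IMPDH1, which makes guanine nucleotides, from 214, 154 and 195 CPM to 95.7 and 97.6 CPM.

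Carbon and lipid metabolism showed falls, and 1 list that was called in both directions without control 2. Of 28 genes of glycolysis and the pentose phosphate pathway, 16 fell and none rose, with a median of -0.5 (22 fell and 2 rose without control 2). SLC2A1, the glucose transporter GLUT1, went from 52.5, 109 and 48.8 CPM to 19.7 and 17.8 CPM and PFKM, a phosphofructokinase, from 60.5, 27.7 and 56.5 CPM to 22.9 and 23.8 CPM. PFKL was at 359, 1320 and 337 CPM and then 184 and 185 CPM (-1.87, and -0.92 without control 2). Of 18 genes of fatty acid synthesis and desaturation, 10 fell and 1 rose (11 and 1 without control 2), with a median of -0.28; MLXIPL, the carbohydrate-response factor ChREBP, went from 23.5, 21 and 25.4 CPM to 5.77 and 6.31 CPM and FADS2, a desaturase, from 290, 335 and 271 CPM to 144 and 143 CPM. Of 23 genes of cholesterol synthesis and uptake, 4 fell and none rose with all libraries, with a median of -0.31, but 9 rose and 7 fell without control 2, with a median of 0.07. The list's median in the library labelled control 2 lay 0.9 above that of controls 1 and 3 on the log2 scale. Of 38 nuclear-encoded respiratory chain subunits, 10 fell and 1 rose (17 and 1 without control 2), with a median of -0.16, led by COX5A (161, 136 and 131 CPM, then 79.1 and 87.6 CPM).

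Lists of organelles and redox were mixed. Of 38 lysosome genes, 11 rose and 9 fell (13 and 13 without control 2), with medians of 0.12 and 0.01; ATP6V0A1, a proton pump subunit, rose from 31.5, 12.3 and 31.7 CPM to 77.7 and 84 CPM. Of 23 NRF2 antioxidant genes, 3 rose and 4 fell (5 and 10 without control 2), with a median of -0.11 that was 0.02 without control 1 and 0.14 without control 3. HMOX1, haem oxygenase 1, rose from 5.43, 1.33 and 4.11 CPM to 19.9 and 22.8 CPM. Of 19 iron handling genes, 4 rose and 4 fell (8 and 6 without control 2), with medians of 0.16 and 0.02; STEAP3, a ferrireductase, fell from 52.9, 30.5 and 51.5 CPM to 18.8 and 19.2 CPM (11% of its exon length is shared). Of 21 genes of the hypoxia-inducible factor pathway, 4 rose and 2 fell with all libraries, but 11 rose and 3 fell without control 2, with medians of -0.03 and 0.23. In that list EPAS1 rose while PDK1, a HIF target that restrains pyruvate oxidation, fell from 68.8, 100 and 73.9 CPM to 37 and 32.3 CPM.

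Of 19 genes of prostaglandin and leukotriene synthesis, 6 fell and 3 rose (8 and 4 without control 2), with medians of -0.52 and -0.27. The cyclooxygenases parted: PTGS1 fell from 7.76, 16.1 and 7.37 CPM to 1.22 and 1.34 CPM and PTGS2 rose from 3.85, 1.46 and 4.62 CPM to 15.8 and 13.1 CPM. ALOX5, the leukotriene enzyme, fell from 5.38, 3.39 and 5.54 CPM to 1.14 and 0.94 CPM. Of 21 nuclear receptors, 8 fell and 3 rose (8 and 7 without control 2), with a median of -0.04 that was 0.07 on library totals. PPARG rose from 13.7, 11.5 and 14.5 CPM to 35.6 and 32.2 CPM and its partner RXRA fell from 321, 405 and 331 CPM to 166 and 164 CPM. In each of these pairs the groups did not overlap. Over all 18908 genes tested, both treated libraries lay above all 3 controls in 4935 and below them in 4336.

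**Figure D2:**
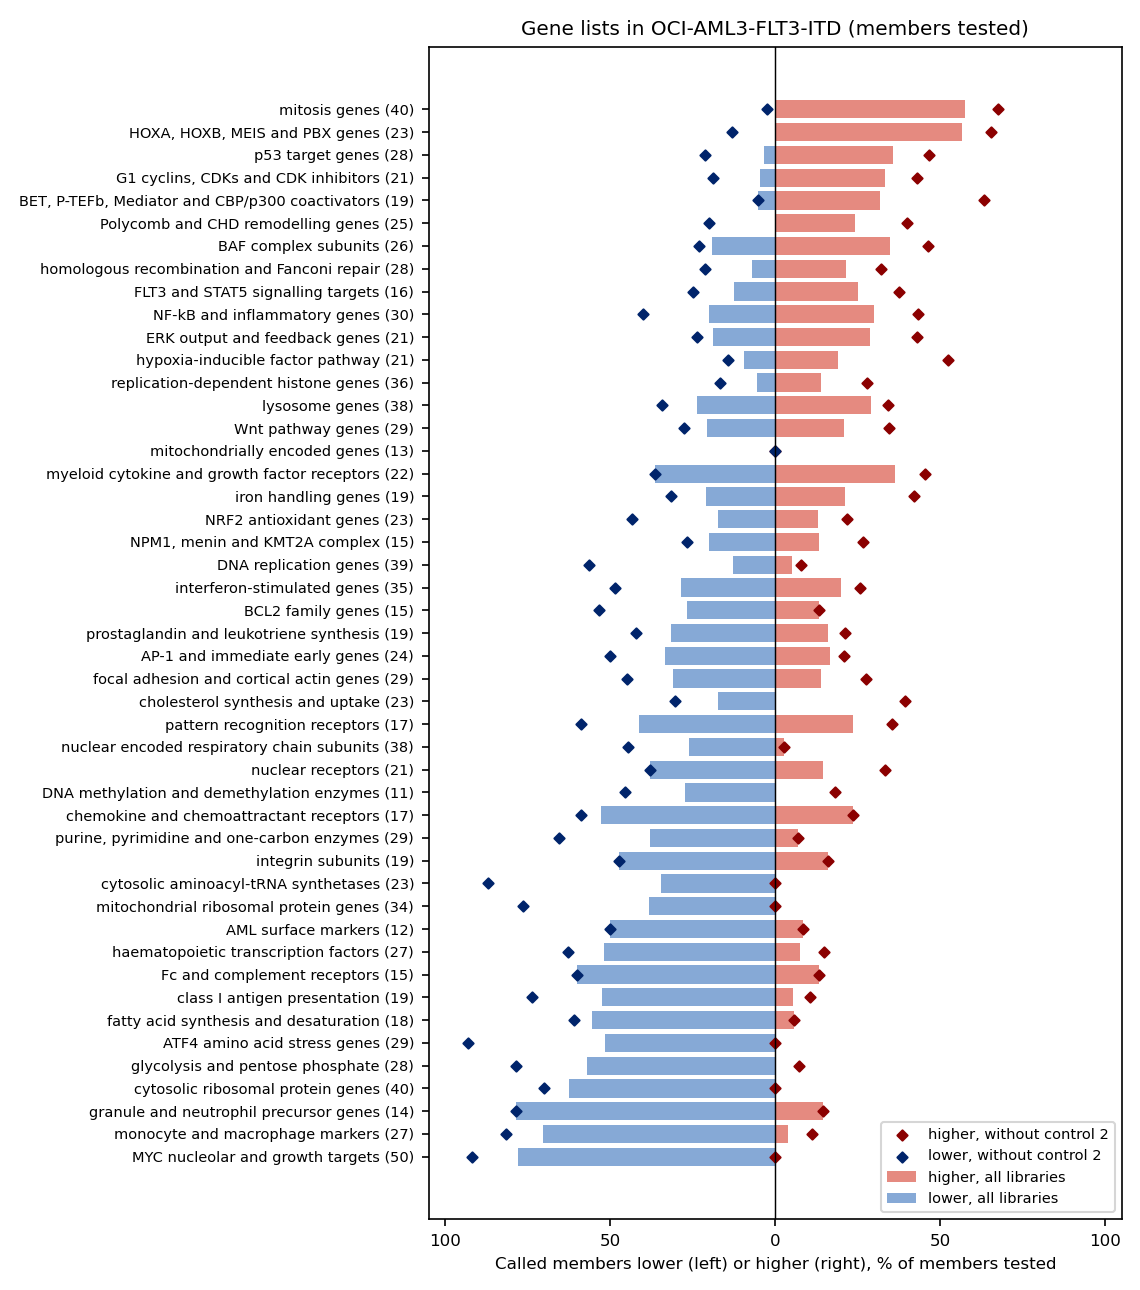
Share of tested members called higher (right) and lower (left) with FHD-286, in %, for the 47 gene lists with at least 10 members tested (number in parentheses); bars are all libraries and diamonds the analysis without the library labelled control 2. Mitosis genes head the list with 23 of 40 rising and MYC targets end it with 39 of 50 falling, and diamonds lie far beyond the bars for ATF4 genes and tRNA synthetases.

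In the cell cycle, most of the mitosis genes rose and few of the replication genes were called. Of 40 mitosis genes, 23 rose and none fell with all libraries (edgeR, adjusted p), with a median of 0.4; without control 2, 27 rose and 1 fell, with a median of 0.32. ECT2, which starts cytokinesis, went from 48, 39 and 53.7 CPM to 93.4 and 84.9 CPM (0.93 ± 0.11, adjusted p = 0.000195), DLGAP5, a spindle protein, from 60.8, 49.6 and 60.7 CPM to 106 and 95.4 CPM (0.82 ± 0.09), and CKAP2L from 40.4, 34.7 and 44.1 CPM to 72.5 and 64.2 CPM (0.78 ± 0.11). These 3 were named as the largest changes of the list. In them the library labelled control 2 was the lowest control, and controls and treated libraries did not overlap. Over all 18908 genes tested, both treated libraries lay above all 3 controls in 4935. Of 39 DNA replication genes, 2 rose and 5 fell, with a median of -0.1 that was 0.01 on library totals; without control 2, 3 rose and 22 fell, with a median of -0.2. CDT1, which loads the helicase, went from 354, 236 and 315 CPM to 187 and 194 CPM and CDC45, a part of the active helicase, from 119, 85.9 and 104 CPM to 71.6 and 70.2 CPM. RRM2, of ribonucleotide reductase, rose from 243, 218 and 235 CPM to 309 and 291 CPM (20.2% of its exon length is shared). Of 28 genes of homologous recombination and Fanconi repair, 6 rose and 2 fell (9 and 6 without control 2), with medians of 0.1 and 0.06; FANCC went from 23.6, 17 and 24.8 CPM to 32.2 and 34.2 CPM.

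The parental line differed here. There, 2 mitosis genes rose and 15 fell, and none of the replication genes rose while 36 of 39 fell. Without control 2, 4 mitosis genes rose and 26 fell there, and 39 of 39 replication genes fell. The background in that line was 19.8% higher and 21.5% lower, and 29% and 29.8% without control 2. That library enters the parental comparison only through the shared spread, the filter of genes and the scaling factors. Tested as a difference of effects, 21 of 40 mitosis genes, 24 of 39 replication genes and 11 of 28 recombination genes were higher in the FLT3-ITD line, and none was lower (edgeR, adjusted p). At an unadjusted p under 0.05, 1 recombination gene was lower. The background of that test was 1.98% higher and 1.38% lower. Without control 2, the numbers were 38, 37 and 20, and 1 recombination gene was lower, against a background of 9.63% higher and 7.39% lower. Relative to the controls of their own line (1 and 3 in the FLT3-ITD line), the median of the mitosis genes was 0.39 and 0.28 in the treated FLT3-ITD libraries and -0.21 to -0.25 in the treated parental ones. That of the replication genes was -0.15 and -0.23 against -0.87 to -0.97. The library labelled control 2 itself lay at -0.27 for mitosis and -0.41 for replication, below controls 1 and 3 in both, and the counts without it are those given above.

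**Figure D3:**
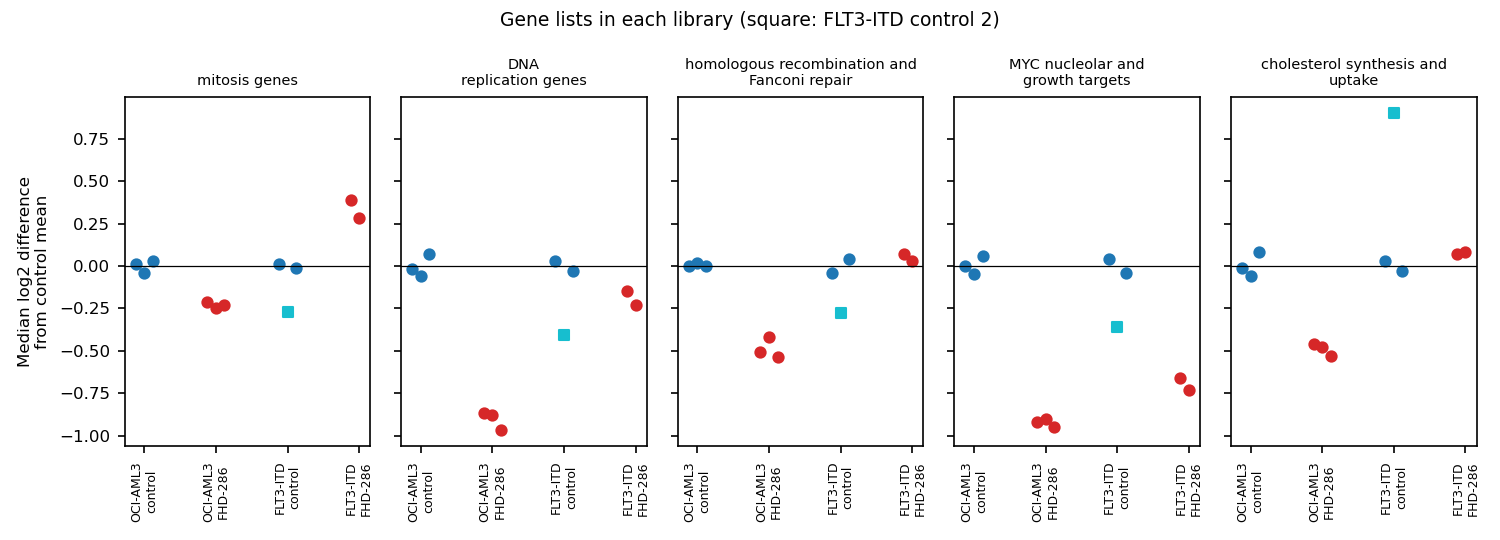
Median log2 difference of 5 gene lists from the control mean of the same line (controls 1 and 3 in the FLT3-ITD line) in each of the 11 libraries; blue points are controls, red points FHD-286, and the cyan square the library labelled control 2. Treated libraries lie above their controls for mitosis in the FLT3-ITD line (0.39 and 0.28) and below them in the parental line, and the square stands at 0.9 for cholesterol genes.

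Of 21 G1 cyclins, CDKs and CDK inhibitors, 7 rose and 1 fell (9 and 4 without control 2), with a median of 0.17. CDKN2B, the inhibitor p15, went from 1.79, 2.02 and 1.84 CPM to 7.65 and 7.18 CPM (1.98 ± 0.12, adjusted p = 2.22e-06) and CDKN1A, the inhibitor p21, from 56.1, 36.2 and 49.8 CPM to 90.9 and 87.6 CPM. CDK4 was the 1 that fell, from 191, 114 and 164 CPM to 98.8 and 103 CPM, with 43.2% of its exon length shared. Of 28 p53 targets, 10 rose and 1 fell (13 and 6 without control 2), with medians of 0.26 and 0.12; TP53INP1 went from 6.9, 8.29 and 7.64 CPM to 27.1 and 26.1 CPM. Of 15 BCL2 family genes, 4 fell and 2 rose (8 and 2 without control 2), with a median of -0.33. BCL2, the survival factor blocked by venetoclax, went from 341, 187 and 412 CPM to 139 and 130 CPM (-1.22 ± 0.25, adjusted p = 0.0041), BIK, which promotes apoptosis, from 1.6, 1.54 and 1.5 CPM to 0.22 and 0.281 CPM, and MCL1, another survival factor, rose from 538, 444 and 546 CPM to 792 and 765 CPM. Of the 36 histone genes that depend on replication, 5 rose and 2 fell (10 and 6 of 35 without control 2), with medians of -0.38 and -0.16. Their copies are near-identical, so these values are uncertain. Their messages also lack poly(A) tails, which matters if poly(A) RNA was selected, a step not described here.

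Immune lists were called in both directions. Of 19 class I antigen presentation genes, 10 fell and 1 rose (14 and 2 without control 2), with medians of -0.3 and -0.58. The immunoproteasome subunits fell: PSMB9 from 37.3, 25 and 27.1 CPM to 13.1 and 13.4 CPM, PSMB8 from 194, 103 and 159 CPM to 56.9 and 53.7 CPM and PSMB10 from 35.4, 24.2 and 29.6 CPM to 4.6 and 5.63 CPM, of which 5.7%, 20.6% and 34.8% of exon length is shared. B2M, the light chain of class I, rose by a log2 fold change of 0.26 (adjusted p = 0.0453). Of 7 class II genes tested, 3 fell and 1 rose (4 and 1 without control 2), with medians of -0.25 and -0.42; CD74 went from 56.6, 63.3 and 49.8 CPM to 25.2 and 24 CPM. Of 35 interferon-stimulated genes, 10 fell and 7 rose (17 and 9 without control 2), with a median of -0.28. GBP4 went from 3.87, 4.58 and 3.78 CPM to 0.343 and 0.293 CPM, whereas ISG20, an RNA exonuclease, rose from 0.68, 0.534 and 0.599 CPM to 4.59 and 4.91 CPM and IFIT2 from 1.18, 1.7 and 1.07 CPM to 5.45 and 4.98 CPM (10.3% of its exon length is shared). Of 30 NF-kB and inflammatory genes, 9 rose and 6 fell (13 and 12 without control 2), with medians of 0.22 and 0. The chemokines CCL5 (136, 168 and 108 CPM, then 42.5 and 37.5 CPM) and CXCL8 (150, 321 and 142 CPM, then 67.5 and 59.7 CPM) fell.

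Chromatin and coactivator lists were tested next. Of 19 BET, P-TEFb, Mediator and CBP/p300 genes, 6 rose and 1 fell (12 and 1 without control 2), with a median of 0.26. HEXIM1, the inhibitor of P-TEFb, went from 28.8, 48.4 and 30.5 CPM to 82.5 and 85.1 CPM (14.4% of its exon length is shared). The Mediator kinases parted, with CDK19 rising from 73.3, 68.4 and 89.4 CPM to 136 CPM in both treated libraries and CDK8 falling by 0.29 on the log2 scale. Of 25 Polycomb and CHD genes, 6 rose and none fell (10 and 5 without control 2), with a median of 0.07 that was -0.04 without control 2; CBX7, a Polycomb subunit, went from 7.47, 6.77 and 7.98 CPM to 15.9 and 18 CPM (21.6% of its exon length is shared). Of 11 DNA methylation and demethylation enzymes, 3 fell and none rose (5 and 2 without control 2), with a median of 0.01 that was -0.03 on upper-quartile factors and 0.02 without control 2; IDH2, a source of 2-oxoglutarate, went from 174, 160 and 143 CPM to 51.7 and 54 CPM. Of 29 Wnt pathway genes, 6 rose and 6 fell (10 and 8 without control 2), with medians of -0.28 and 0.08. The ligand WNT7B fell from 6.13, 24.5 and 6.31 CPM to 0.494 and 0.464 CPM (-4.68, and -3.7 without control 2).

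Markers of other blood and tissue cells were mostly at low levels. Of 21 erythroid and megakaryocyte markers, 5 were tested, of which 2 rose and 1 fell (3 and 1 without control 2), with a summed level of 38.8 to 60.5 CPM in controls and 55.6 to 59.6 CPM after treatment, and 6 were at 0 in all 5 libraries. EPOR, the erythropoietin receptor, went from 10.7, 21.9 and 9.64 CPM to 30 and 34.5 CPM. Of 20 lymphoid markers, 8 were tested and 2 fell (4 fell and 1 rose without control 2), with a sum of 209 to 237 CPM and then 219 to 231 CPM and 6 at 0. Of 14 mast cell, basophil and eosinophil markers, 4 were tested and 1 fell (1 rose and 1 fell without control 2), with a sum of 8.37 to 19.1 CPM and then 8.53 to 9.59 CPM and 3 at 0. Of 16 dendritic cell markers, 6 were tested, of which 3 fell and 1 rose in both analyses, with a sum of 970 to 1342 CPM and then 335 to 358 CPM and 2 at 0. That sum was mostly IRF8, a factor also used by monocytes, at 897, 1253 and 849 CPM and then 248 and 227 CPM. Of 18 stromal, endothelial and epithelial markers, 5 were tested and 2 fell in both analyses, with a sum of 17.2 to 30.9 CPM and then 11.1 to 12 CPM and 4 at 0. The part of such cells in the results was not tested. In the lists where no member was called in a direction with all libraries, the count at an unadjusted p under 0.05 in that direction was 2 for cholesterol (higher) and Polycomb genes (lower), 1 for MYC targets and DNA methylation enzymes (higher), and 0 for the rest. DESeq2 called 2 Polycomb genes lower and none in the other lists.

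The calls of the lines were compared directly. Of 2957 rises in the FLT3-ITD line, 2129 (72%) were also rises in OCI-AML3, where they made up 56.9% of 3742. Of 2810 falls, 2080 (74%) were also falls there, 51.1% of 4074. Without control 2 the shared shares were 75.8% and 79.5% of the calls of the FLT3-ITD line. Among genes called in opposite directions and also called in the test of the difference, 52 rose in the FLT3-ITD line and fell in OCI-AML3, and 38 did the reverse (160 and 149 without control 2). That test, effect in the FLT3-ITD line minus effect in OCI-AML3, called 375 genes higher and 260 lower. All 375 and 260 were called again without control 2, when the counts were 1797 and 1380. Leaving out 1 FLT3-ITD library gave 45 and 60 without treated 1, 100 and 84 without treated 2, and 742 and 458 without control 1. Leaving out any 1 of the 6 parental libraries gave counts from 71 to 152 higher and from 98 to 145 lower.

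The largest negative differences are given for genes at a mean log2 CPM of 2 or more, which leaves out IFIT2 (-3.85) and other genes of lower expression. Of the 6 given, DDIT4, CEBPB and CRISPLD2 rose in OCI-AML3. DDIT4, an inhibitor of mTORC1, was at 138, 63.2 and 130 CPM in the FLT3-ITD controls and 54.4 and 57.1 CPM after treatment, but rose from 9.95 to 12 CPM to 25.4 to 28.9 CPM in the parental line (difference -2.31 ± 0.36, adjusted p = 0.00889, with 41.2% of its exon length shared). CEBPB, a factor of monocytes and of stress, was at 92, 52.6 and 83.7 CPM and then 39.7 and 60 CPM, which overlap, and rose from 25.4 to 28.7 CPM to 95.7 to 98.8 CPM in the parental line (difference -2.46 ± 0.3, adjusted p = 0.00273, with 11.8% of its exon length shared). In the FLT3-ITD line alone CEBPB was not called with all libraries (adjusted p = 0.0568) and was called lower without control 2 (8.51e-06). CRISPLD2, a secreted protein, went from 7.01, 23.3 and 8.59 CPM to 4 and 3.59 CPM but rose from 20.6 to 21.3 CPM to 71.8 to 78.3 CPM in the parental line (difference -3.59 ± 0.55, adjusted p = 0.00889). ART3 (17.4, 30.7 and 15.4 CPM, then 1.98 and 1.68 CPM), CD101, an inhibitory receptor (6.43, 12.4 and 7.63 CPM, then 0.742 and 0.671 CPM, 10.3% of its exon length shared), and KLF15 (2.72, 6.7 and 2.39 CPM, then 0.261 and 0.391 CPM) fell in both lines, and fell further in the FLT3-ITD line.

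Of the 6 genes with the largest positive differences at that expression, 5 fell in OCI-AML3. SHANK1, a scaffold protein, was at 42, 42.9 and 50.3 CPM and then 43.5 and 51 CPM, which overlap, and fell from 69.1 to 74.4 CPM to 24.1 to 25.5 CPM in the parental line (difference 1.58 ± 0.13, adjusted p = 0.000746). TDRD7 went from 41.9, 36.8 and 42.2 CPM to 32.5 and 32.3 CPM, against 81.4 to 88.3 CPM and then 25.7 to 27.4 CPM in the parental line. ICAM1, the ligand of LFA-1, went from 6.86, 6.58 and 8.15 CPM to 3.46 and 2.81 CPM, a smaller fall than in the parental line (difference 1.47 ± 0.24, adjusted p = 0.0105, with 23.6% of its exon length shared). BIN1, a membrane-bending adaptor, rose in both lines and more in the FLT3-ITD line, from 2.65, 1.76 and 2.05 CPM to 8.36 and 8.81 CPM. F2RL3, a thrombin receptor, rose from 24.3, 13.7 and 24.4 CPM to 36 and 40.2 CPM and fell in the parental line.

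**Figure D4:**
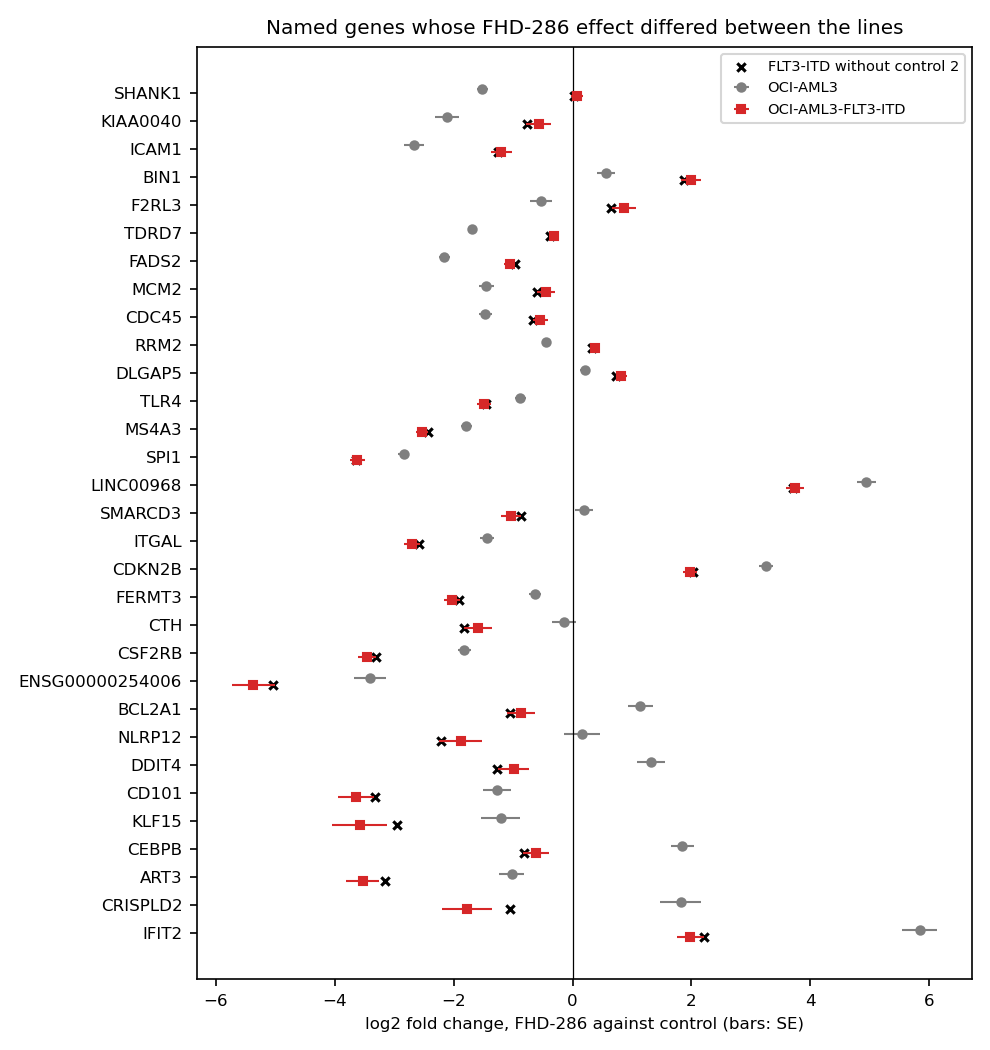
Log2 fold change with FHD-286 (bars: SE) in OCI-AML3 (grey circles) and OCI-AML3-FLT3-ITD (red squares) for the 31 named genes whose effect differed between the lines in both analyses; crosses are the FLT3-ITD values without the library labelled control 2. These genes had to be called in both analyses, so agreement of crosses and squares is in part built in. IFIT2 shows the widest gap between the lines, at 1.98 in the FLT3-ITD line against 5.84 in OCI-AML3.

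A last set of genes turned on the library labelled control 2. CD93, a receptor of monocytes and endothelium, was at 0.0425, 238 and 0.0624 CPM in the controls and 0.137 and 0.122 CPM in the treated libraries, against 227 to 234 CPM in the parental controls. Its log2 fold change was -9.24 (adjusted p = 0.0489) with all libraries and 1.26 (adjusted p = 0.0516) without control 2. PDE9A (0.0425, 28.2 and 0.0125 CPM, then 0 and 0.0366 CPM) and ZNF808 (0.0567, 12 and 0.0125 CPM, then 0 and 0.0244 CPM, 17.3% of its exon length shared) were also called only through that library. Their control values other than that library were at or near the limit of 3 counts. NXF3, HGF and HSH2D remained lower without control 2, but at log2 fold changes of -2.09, -1.77 and -2.62 in place of -6.78, -5.28 and -6.09. HSH2D, an adaptor of blood cells, was at 2.47, 72.2 and 2.17 CPM and then 0.316 and 0.427 CPM.

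Other falls were larger without the library labelled control 2. HSD11B1, which activates glucocorticoids, was at 129, 7.43 and 112 CPM in the controls and 9.38 and 7.15 CPM in the treated libraries, so that the groups overlap. Its log2 fold change was -3.33 (adjusted p = 0.0149) and -3.87 without control 2. SLC12A3, a sodium chloride cotransporter (26.1, 1.54 and 29.5 CPM, then 1.91 and 1.76 CPM), IL7R, the IL-7 receptor (22, 1.17 and 23.6 CPM, then 1.77 and 1.92 CPM), and PRL, prolactin (22, 1.11 and 20.4 CPM, then 2.65 and 2 CPM), had the same form. In all 4 genes controls 1 and 3 lay far above both treated libraries.

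**Figure D5:**
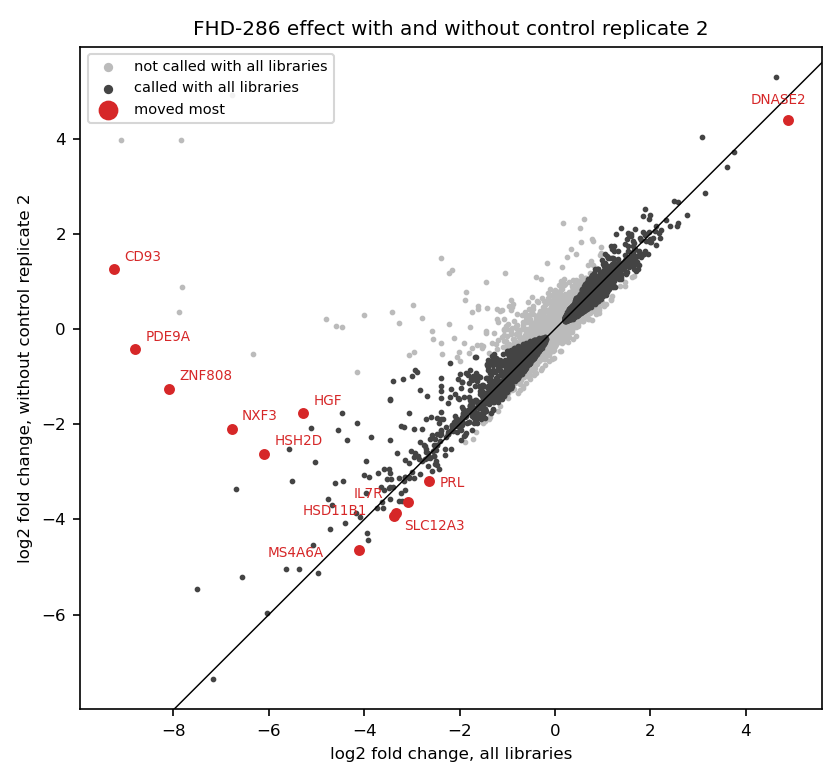
Log2 fold change with FHD-286 in the FLT3-ITD line with all libraries (x axis) and without the library labelled control 2 (y axis) for genes expressed at a mean log2 CPM of 2 or more; the line marks equal values and red points the 12 called genes that moved most. Most genes lie along the line, CD93 moves from -9.24 to 1.26, and a band of uncalled genes at the left moves in the same way.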

How the data were processed

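The authors deposited 1 table of raw read counts per gene, with Ensembl gene identifiers and 1 column per library. Reads were paired-end Illumina reads of total RNA, per the labels' protocols. Per the submitters' processing notes, STAR and hg38 were used. Versions, strand setting and the program that counted the reads are not given in the sources used here. Of 58037 identifiers, 57429 were found in GENCODE 29 (GRCh38), which gave coordinates and overlaps. Symbols came from a separate list of gene names, and from GENCODE 29 where that list held none.

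The counts of all 11 libraries were fitted with edgeR 4.0.16 (R 4.3.3): filterByExpr (minimum count 10, total 15), TMM factors, a mean per group and the quasi-likelihood test. A call is a Benjamini-Hochberg adjusted p under 0.05 over all genes tested. Log2 fold changes carry standard errors from the same test, and the script was tested on simulated data. Alternatives were other scaling factors, filters, DESeq2 1.42.0, a replicate block, a test against a minimum log2 fold change of 1, only the 2 groups compared, and each library left out in turn.

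Named genes are FLT3, SMARCA4, SMARCA2, MYC and SPI1, the 12 leading changes in each direction (mean log2 CPM of 2 or more, groups apart, called with and without control 2, ranked by the smaller fold change of these analyses), and the 6 that moved most with it in each direction. To these were added in each of 54 lists the 3 largest changes and 1 in the minority direction, and the 6 largest differences between the lines in each direction at the same mean expression. Cell type markers, the genes whose promoters are shown and a few further list members were named outside this rule, and some genes it selects are not reported here. The members and lists were chosen with earlier results of these data known. Promoter windows came from RefSeq (GRCh38.p14).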

Additional observations from a re-analysis of the deposited data

Results flagged for a closer look

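Among the named genes, 31 had an effect of FHD-286 that differed between the lines, in the test of the difference itself, whether or not the library labelled control 2 was included. Values are the log2 effect in OCI-AML3-FLT3-ITD minus that in OCI-AML3. Dixon's test for a single outlying sample was not applied to groups of 2 and 3 libraries.

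Among myeloid and adhesion genes, negative differences were SPI1 -0.78, NLRP12 -2.03, TLR4 -0.61, MS4A3 -0.74, CSF2RB -1.64, ITGAL -1.26, FERMT3 -1.4, CD101 -2.37 and CEBPB -2.46. The BAF subunit SMARCD3 stood at -1.22. Negative differences in stress, survival and interferon genes were -1.44 for CTH, -2.31 for DDIT4, -2.0 for BCL2A1, -1.28 for CDKN2B and -3.85 for IFIT2. The remaining negative differences were -3.59 for CRISPLD2, -2.51 for ART3, -2.37 for KLF15, -1.19 for LINC00968 and -1.97 for ENSG00000254006.

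Among replication and mitosis genes, positive differences were 0.82 for RRM2, 0.93 for CDC45, 1.01 for MCM2 and 0.61 for DLGAP5. The others were FADS2 at 1.1, SHANK1 at 1.58, KIAA0040 at 1.53, ICAM1 at 1.47, BIN1 at 1.43, F2RL3 at 1.4 and TDRD7 at 1.38.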

How the results depend on the processing

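With all libraries 2957 genes rose and 2810 fell. Fitting only the 2 groups compared gave 730 and 888, where the spread rests on 5 libraries, and testing against a minimum log2 fold change of 1 gave 191 and 427. Leaving out 1 library gave 1530 to 4619 rises and 1378 to 4521 falls. Without control 2, library totals gave 5986 rises and DESeq2 gave 4461 falls. The difference between the lines (375 higher, 260 lower) became 812 and 655 with DESeq2 and 401 lower without a filter, and ran from 45 to 1797 and from 60 to 1380 over single libraries left out. Without control 2 it was 1473 and 1545 on library totals and 1791 and 1431 with DESeq2. The causes were not tested. CD93 turned from -9.24 to 1.26 without control 2 (1.37 with library totals, 1.27 with DESeq2, 1.21 with the replicate block), and was -9.83 at its lowest with 1 library left out.

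With a replicate block, 2709 genes rose and 2461 fell (4098 and 4016 without control 2). The block gave 203 higher and 146 lower differences between the lines, and 1411 and 1076 without control 2. Same-numbered libraries of the FLT3-ITD line correlated at 0.104 and 0.062 in their deviations, over 2 pairs. With 2 treated libraries these deviations mirror each other, so the values cannot show whether libraries were paired.

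Among the fold changes of named genes, 4480 values kept their direction and side of the threshold over these alternatives, 434 lost the call, 21 gained it and 4 turned, all of them CD93. Of the values of list medians over these alternatives, 102 moved by at least the median standard error of the members' log2 fold changes. Depth limits genes near 3 counts, such as PDE9A and ZNF808.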

Other observations

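The following values were noticed after the data were seen and carry no test of their own. Of the genes at 1 CPM or more in all 3 FLT3-ITD controls, 9 were under 0.1 CPM in both treated libraries. They included CACNA2D3, a calcium channel subunit, ASB2, LILRA1 and LINC03082, which had no count after treatment (1.49, 1.5 and 1.52 CPM in the controls). The opposite case was 1 gene, the pseudogene FRG2FP, at 0.0708, 0 and 0.0624 CPM and then 6.63 and 6 CPM.

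Processed pseudogenes were called lower more often than higher, with 214 lower (12.6%) and 23 higher (1.36%) of 1694 tested. Protein-coding genes were called at 17.2% lower and 19.6% higher of 13300.

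By chromosome, the library labelled control 2 differed from controls 1 and 3 by a median log2 value of -0.39 on chromosome 6, -0.35 on chromosome 18 and 0.34 on chromosome 21. The parental controls differed from the same 2 libraries by -0.28, -0.3 and 0.5, and the treated FLT3-ITD libraries by 0.05, 0.05 and -0.03. On the other chromosomes the library labelled control 2 lay between -0.19 and 0.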
